A study of Mus musculus with 11 samples.

Results

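The Kruppel-like factor (Klf) genes are described here in BV2, an immortalized mouse microglial line, exposed to fragments from the amino terminus of apolipoprotein E (apoE). The group holds 10 genes, Klf2, Klf3, Klf4, Klf6, Klf7, Klf9, Klf10, Klf11, Klf13 and Klf16. They were taken by gene symbol from the 36529 genes listed in the count data. The match by symbol uses no measured value, but the list of members was chosen with earlier results of these data known. In one experiment, 3 samples were treated with nApoE4, a fragment of the E4 form of apoE spanning residues 1 to 151, at 25 μg/mL for 5 h, and 3 samples were untreated controls. The other experiment had 2 samples treated with nApoE3, the matching fragment of the E3 form, at the same dose and time, and 3 untreated controls of its own. All 11 samples came from the one BV2 line, whose strain is given as C57BL/6, and RNA was collected as total RNA. The control labels say untreated, the treatment protocol names a PBS vehicle, and the methods of the study say that controls received matched conditioned media, so that the sources differ on what the controls were given. The methods of the study call the measurements independent without saying what was repeated, and p-values measure the spread between these samples, which may be technical. Each fragment was tested in its own experiment, and fragment and experiment cannot be told apart.

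Klf proteins are DNA-binding transcription factors with zinc fingers at their carboxy terminus, and they bind GC-rich boxes and CACCC elements that the related Sp factors also bind. Their amino-terminal parts differ, so that some members activate genes through histone acetyltransferases while others repress them through the corepressors CtBP or Sin3. In myeloid cells Klf2 and Klf4 are known as restraints on and modifiers of inflammatory gene expression, Klf6 is known as a rapidly induced injury-response factor, and Klf10 and Klf11 were first described as genes induced by transforming growth factor beta (TGF-β). Several members are known as immediate-early genes.

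Promoter sequences of 4 members are shown because the data bear on how these genes moved: Klf2 and Klf13 fell with nApoE3 and had no called change with nApoE4, Klf4 fell with both fragments, and Klf6 rose with both and was the most abundant member per length of exon. The sequences are from RefSeq on GRCm38.p6, run 5′ to 3′ on the strand of the gene, and cover the 200 bases from 250 to 51 bases before the annotated start. Capitals mark matches, on either strand, to the CCAAT box (CCAAT), the core of the cyclic AMP response element (TGACG) and the binding site of MEF2.
Klf2 promoter, chr8:72318812-72319011, plus strand: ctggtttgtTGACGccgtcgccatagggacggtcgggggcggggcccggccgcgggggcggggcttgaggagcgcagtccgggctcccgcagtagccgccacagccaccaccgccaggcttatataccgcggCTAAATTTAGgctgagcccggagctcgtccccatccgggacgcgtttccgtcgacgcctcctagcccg
Klf13 promoter, chr7:63938966-63939165, minus strand: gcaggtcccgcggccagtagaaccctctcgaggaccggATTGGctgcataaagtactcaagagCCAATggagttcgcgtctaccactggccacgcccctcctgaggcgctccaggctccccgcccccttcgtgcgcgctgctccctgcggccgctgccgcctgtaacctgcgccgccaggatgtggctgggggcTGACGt
Klf4 promoter, chr4:55532526-55532725, minus strand: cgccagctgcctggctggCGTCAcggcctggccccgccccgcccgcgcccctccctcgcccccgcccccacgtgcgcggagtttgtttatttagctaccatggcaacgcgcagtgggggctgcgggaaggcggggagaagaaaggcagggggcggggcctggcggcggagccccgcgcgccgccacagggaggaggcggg
Klf6 promoter, chr13:5861239-5861438, plus strand: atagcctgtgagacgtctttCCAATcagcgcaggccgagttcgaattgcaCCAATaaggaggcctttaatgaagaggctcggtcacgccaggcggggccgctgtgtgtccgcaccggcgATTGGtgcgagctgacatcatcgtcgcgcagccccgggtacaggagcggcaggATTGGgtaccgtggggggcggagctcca
Of the 10 members, 8 had a promoter sequence, and Klf10 and Klf16 did not. The core TGACG was found in the windows of Klf2, Klf4 and Klf13, that is in 3 of 8 members against 12.7% of 32851 promoters of the same length. The CCAAT box was found in 4 of 8 members against 28.4% of promoters, with 4 matches in Klf6, 3 in Klf9, 2 in Klf11 and 2 in Klf13. The MEF2 site was found in Klf2 alone among the members, against 2.42% of promoters, and the AP-1 site (TGANTCA) in Klf9 alone, against 5.57%. The GC box (GGGCGG) was found in 7 of 8 members against 24.6%, and the CACCC letters in 3 of 8 against 44.4%, and these 2 are not marked by capitals. No member window held the letters searched for the NF-kB site, the CArG box or the TATA box, which were found in 3.13%, 1.16% and 9.14% of promoters. The window stops 51 bases before the start, so a TATA box closer to the start could not be found by this search. The GC content of the member windows was 62.0 to 79.0%, above the median of 51.5% over all windows, and a GC-rich window holds GC-rich letters more often. These matches describe letters in the window and are not binding sites.

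Total counts on genes were 39732710 to 44162511 per sample in the nApoE4 experiment and 55809688 to 69768666 in the nApoE3 experiment, so that the floor of 3 counts corresponded to 0.0430 to 0.0755 CPM (counts scaled to a common library size). The biological coefficient of variation was 0.0838 in the nApoE4 experiment and 0.0262 in the nApoE3 experiment, and the control sample ControlA replicate 2 stood furthest from its group, with a chi-square of 47.9 per gene against replicate 3 and 25.8 against replicate 1, compared with 3.15 to 12.1 for the pairs without it. Leaving it out changed no member's call in any comparison. The macrophage markers Csf1r and Cd68 were high in all samples, at 641 to 865 and 716 to 1160 CPM. Spi1, Ptprc and Itgam were at 210 to 684, 236 to 496 and 59.6 to 202 CPM. The microglial markers P2ry12 and Aif1 were listed at 0 counts in every sample and at most 10, respectively. Cx3cr1, C1qa and Tmem119 were low, at no more than 0.677, 3.47 and 9.26 CPM. Trem2 ran from 62 to 2578 counts among the controls of the nApoE4 experiment. Whether these values reflect expression was not tested. Of 15 marker genes of astrocytes, neurons, oligodendrocytes, endothelium and lymphocytes, the defining Gfap, Aqp4, Mog, Cldn5 and Cd3e had 0 to 4 counts per sample. The summed level of the 3 astrocyte genes was 0.793 to 1.24 CPM in the controls and 5.91 to 6.82 CPM with nApoE4, and 1.03 to 1.20 against 3.996 to 4.15 CPM with nApoE3, which was carried by the glutamate transporter gene Slc1a2. Below, CPM use library sizes after TMM scaling, a member was called when its adjusted p from the quasi-likelihood F test of edgeR was under 0.05 with Benjamini-Hochberg adjustment over all genes tested, and errors after a log2 fold change are approximate SE. With bulk RNA, fewer cells expressing a gene and less RNA per cell cannot be told apart.

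With nApoE4, 8 of 10 members were called, against 57.2% of the 14240 genes tested, with 3 higher (28.6% of all genes) and 5 lower (28.6%). Klf6, Klf7 and Klf3 rose, and Klf10, Klf11, Klf4, Klf9 and Klf16 fell. Changes of more than 2-fold were seen for 3 members (17.7% of all genes), with Klf6 and Klf7 higher (10.2%) and Klf10 lower (7.46%). With nApoE3, 9 of 10 members were called, against 67.7% of 14817 genes, with 2 higher (33.1%) and 7 lower (34.6%). Klf6 and Klf7 rose, and the others fell except Klf3. More than 2-fold changes were seen for 6 members (16.2% of all genes), with Klf6 and Klf7 higher (9.6%) and Klf2, Klf4, Klf10 and Klf11 lower (6.57%). All 10 members were tested in every comparison. The median log2 fold change of the members was -0.25 with nApoE4 and -0.69 with nApoE3, beside 0.0013 and -0.0026 for all genes tested. Klf genes outside the group had medians of 1.73 with nApoE4 (3 tested) and 0.42 with nApoE3 (4 tested), some at few counts. The negative medians therefore describe the 10 members and not the whole family. Most genes tested were called in each comparison, so that the calls alone do not set the members apart.

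**Figure D1:**
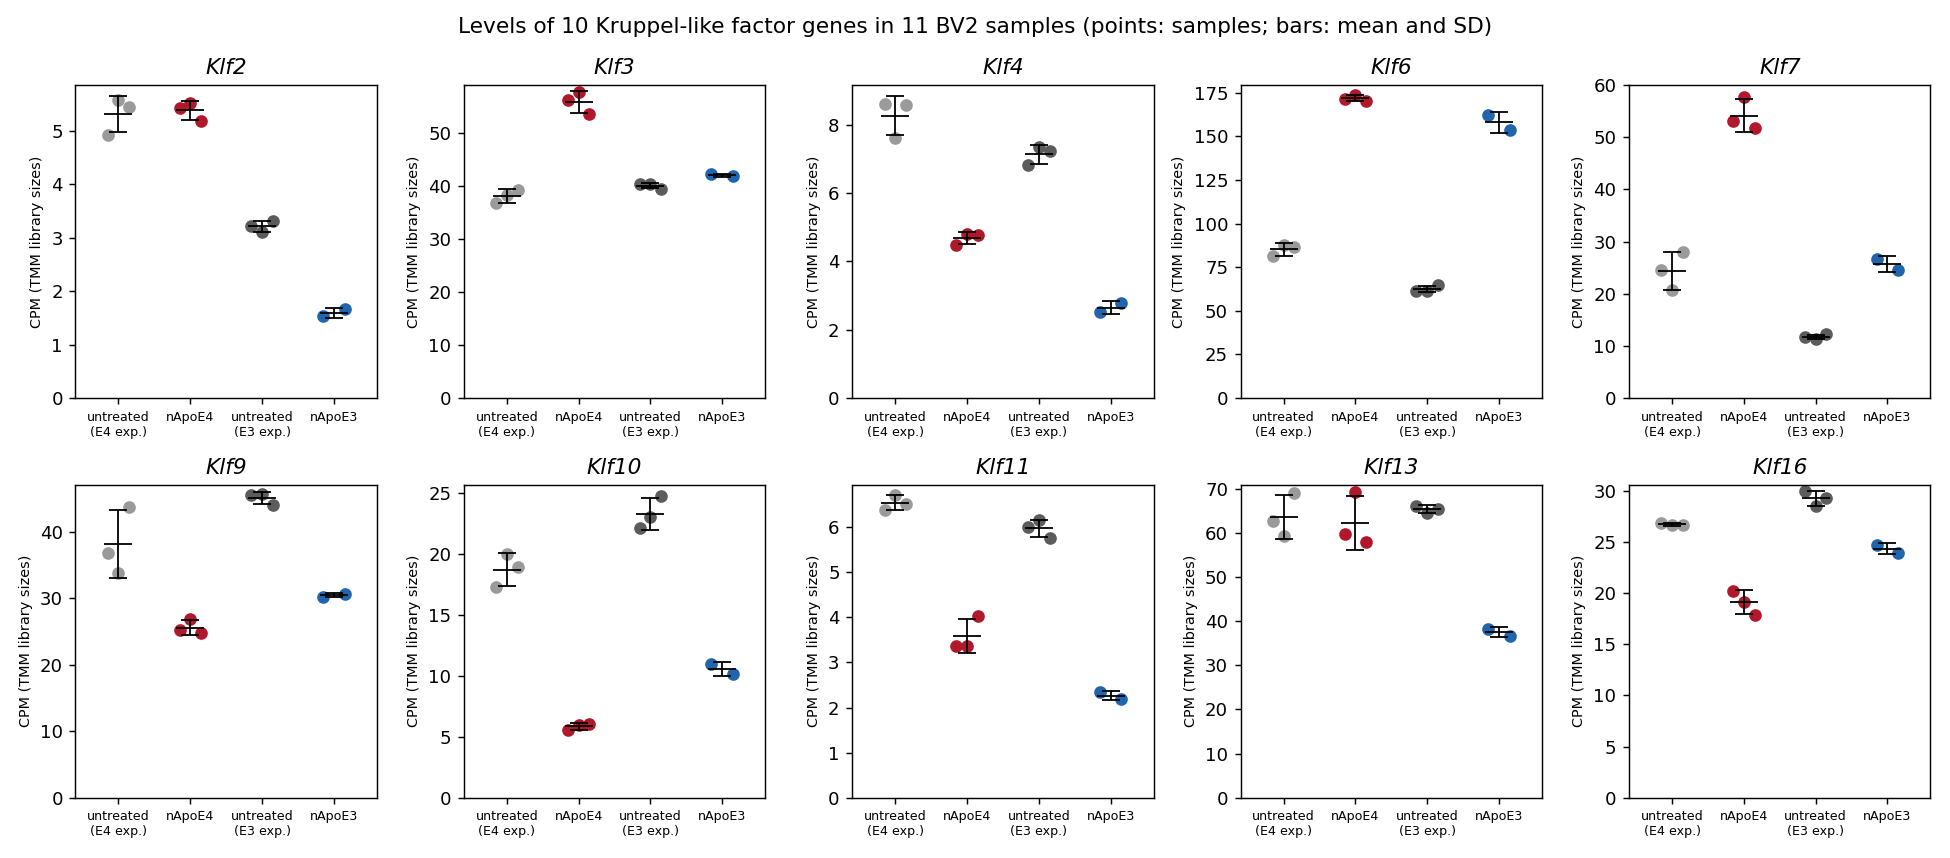
Levels of the 10 Klf genes in CPM (vertical axes, from 0, a different scale in each panel) in the 4 groups, with each point a sample and the bars the mean and SD of 3 samples (2 for nApoE3). Klf6 rose from 85.2 to 172 CPM with nApoE4 and from 62.5 to 158 CPM with nApoE3, while Klf2 and Klf13 were lower with nApoE3 and overlapped their controls with nApoE4.

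Klf6 (chr13:5861482-5870394, plus strand) is a widely expressed activator known for its early rise after injury and in activated macrophages. Its level was 81.1, 87.8 and 86.5 CPM in the controls of the nApoE4 experiment and 171, 174 and 170 CPM with nApoE4. It was 61.5, 61.6 and 64.5 CPM in the controls of the nApoE3 experiment and 162 and 154 CPM with nApoE3. All treated samples lay far above all controls in both experiments, at 6766 to 9436 counts per sample. The log2 fold change was 1.02 ± 0.057 (adjusted p = 3.10e-07) with nApoE4 and 1.33 ± 0.032 (adjusted p = 3.08e-12) with nApoE3, or 2.03-fold and 2.52-fold by edgeR. The promoter shown above, with 4 CCAAT boxes, belongs to this gene. CCAAT boxes were also found in Klf9 and Klf11, which fell with both fragments, and not in Klf7, which rose with both. A tie between these letters and the rise was not tested.

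Klf7 (chr1:64029447-64122282, minus strand), the closest relative of Klf6 in the family and known from the development of neurons, rose with both fragments. Its level was 24.6, 20.7 and 28.0 CPM in the controls and 53.0, 57.7 and 51.8 CPM with nApoE4, and 11.8, 11.4 and 12.2 CPM in the controls against 26.7 and 24.6 CPM with nApoE3. The groups of each experiment did not overlap, although the nApoE3 samples reached only the level of the other experiment's controls. The log2 fold change was 1.15 ± 0.10 (adjusted p = 9.22e-06 by edgeR) with nApoE4 and 1.12 ± 0.051 (adjusted p = 1.08e-09) with nApoE3. Of the exon bases of Klf7, 3196 are shared with a noncoding gene on the opposite strand, Gm26649, and whether counting used strand is not stated, so that reads of the 2 genes cannot be told apart here.

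Klf3 (chr5:64803388-64832901, plus strand), a repressor that recruits CtBP, was the third member that rose with nApoE4. Its level was 36.8, 38.3 and 39.3 CPM in the controls and 56.3, 57.8 and 53.6 CPM with nApoE4, without overlap. It was 40.3, 40.4 and 39.5 CPM in the controls and 42.2 and 41.8 CPM with nApoE3, which also lay above the control range, by a narrow margin. The log2 fold change was 0.56 ± 0.058 (adjusted p = 2.64e-05 by edgeR) with nApoE4 and 0.06 ± 0.033 (adjusted p = 0.116) with nApoE3, whose 95% interval ran from -0.01 to 0.13. Klf3 shares 404 exon bases with Gm20033 on the opposite strand.

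Klf4 (chr4:55527143-55532466, minus strand), a factor of pluripotency and of monocyte differentiation, fell with both fragments from a low level. It was 8.62, 7.60 and 8.59 CPM in the controls and 4.48, 4.81 and 4.76 CPM with nApoE4, and 6.83, 7.35 and 7.24 CPM in the controls against 2.51 and 2.78 CPM with nApoE3. Treated and control samples did not overlap, and the counts behind these levels were 146 to 482 per sample. By edgeR, its log2 fold change was -0.82 ± 0.098 (adjusted p = 7.06e-05 by edgeR) with nApoE4 and -1.44 ± 0.097 (adjusted p = 4.83e-08) with nApoE3.

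Klf2 (chr8:72319033-72321656, plus strand), known for quiescence of T cells and endothelium and for restraint of monocyte activation, behaved differently in the 2 experiments. Its counts were 210, 250 and 254 in the controls and 233, 230 and 206 with nApoE4, that is 4.93, 5.58 and 5.44 CPM against 5.43, 5.53 and 5.19 CPM. The nApoE4 samples lay within the range of their controls. The counts were 228, 192 and 187 in the controls and 89 and 94 with nApoE3, that is 3.23, 3.10 and 3.32 CPM against 1.53 and 1.66 CPM. Both nApoE3 samples lay below all controls. The fitted log2 fold change was 0.02 ± 0.099 with nApoE4 (adjusted p = 0.855 by edgeR, 95% interval -0.20 to 0.25) and -1.02 ± 0.13 (adjusted p = 2.10e-05) with nApoE3.

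The remaining 5 members, Klf9, Klf10, Klf11, Klf13 and Klf16, carry a Sin3-interacting domain and are known mainly as repressors. Klf10 (chr15:38291463-38300706, minus strand) had the largest fall of any member with nApoE4. It was 17.3, 19.96 and 18.9 CPM in the controls and 5.53, 5.99 and 6.07 CPM with nApoE4, a log2 fold change of -1.67 ± 0.087 (adjusted p = 2.03e-07 by edgeR) or 3.18-fold lower. It was 22.1, 23.0 and 24.7 CPM in the controls and 10.997 and 10.2 CPM with nApoE3, a log2 fold change of -1.14 ± 0.060 (adjusted p = 4.65e-09) or 2.21-fold lower. Every treated sample lay below every control, in counts 237 to 249 against 735 to 895 and 575 to 640 against 1393 to 1562.

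Klf11 (chr12:24651274-24662789, plus strand), the nearest relative of Klf10 and likewise tied to TGF-β signaling, also fell with both fragments, but further with nApoE3. Its level was 6.39, 6.71 and 6.51 CPM in the controls and 3.36, 3.37 and 4.03 CPM with nApoE4, and 5.99, 6.15 and 5.77 CPM in the controls against 2.34 and 2.20 CPM with nApoE3. These levels gave a log2 fold change of -0.86 ± 0.11 (adjusted p = 0.000107 by edgeR) and -1.40 ± 0.10 (adjusted p = 1.00e-07), and treated samples lay below controls in both experiments.

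Klf9 (chr19:23141226-23168134, plus strand), a repressor induced by glucocorticoid and thyroid hormone, fell with both fragments. Its level was 36.8, 33.9 and 43.8 CPM in the controls and 25.2, 26.8 and 24.8 CPM with nApoE4, and 45.5, 45.8 and 44.0 CPM in the controls against 30.2 and 30.7 CPM with nApoE3. Treated samples were below all controls, and the controls of the nApoE4 experiment were the more scattered. Its log2 fold change was -0.57 ± 0.094 (adjusted p = 0.000591 by edgeR) and -0.57 ± 0.035 (adjusted p = 2.12e-08).

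Klf13 (chr7:63886351-63938915, minus strand), known as a late activator of Ccl5 in T cells, was the second member with no called change with nApoE4. It was 62.6, 59.2 and 68.9 CPM in the controls and 59.6, 69.2 and 57.8 CPM with nApoE4, and the groups overlapped. It was 66.2, 64.4 and 65.4 CPM in the controls and 38.2 and 36.7 CPM with nApoE3, with both treated samples below all controls. In log2 units this was a fold change of -0.03 ± 0.085 with nApoE4 (adjusted p = 0.817 by edgeR, 95% interval -0.22 to 0.17) and -0.81 ± 0.033 (adjusted p = 4.43e-10) with nApoE3.

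Klf16 (chr10:80567124-80577321, minus strand), a repressor first studied at dopamine receptor genes, had the smallest called changes. It was 26.9, 26.6 and 26.6 CPM in the controls and 20.2, 19.1 and 17.9 CPM with nApoE4, and 29.9, 28.5 and 29.3 CPM in the controls against 24.7 and 23.9 CPM with nApoE3. On the log2 scale the change was -0.48 ± 0.066 (adjusted p = 0.000179 by edgeR) and -0.27 ± 0.040 (adjusted p = 6.45e-05), and treated samples were below all controls in both experiments. Counted over the group, the sample ranges did not overlap for 8 of 10 members with nApoE4, against 63.6% of all genes tested, and for 10 of 10 with nApoE3, against 77.6%.

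An interaction term over all 11 samples compared the 2 responses, where a positive value means a higher response with nApoE4. It was called for 8 of 10 members, against 28.3% of the 15287 genes tested, with 5 positive (14.4% of all genes) and 3 negative (13.9%). Klf2 differed most, by 1.03 ± 0.14 on the log2 scale (95% interval 0.72 to 1.34, adjusted p = 0.000153 by edgeR), and was the 1 member past 2-fold (5.93% of all genes, 2.58% positive and 3.35% negative). Klf13 differed by 0.77 ± 0.10 (adjusted p = 0.000136), Klf4 by 0.61 ± 0.13 (adjusted p = 0.00309), Klf11 by 0.53 ± 0.14 (adjusted p = 0.0129) and Klf3 by 0.48 ± 0.067 (adjusted p = 0.000149). In these 5 the nApoE4 response was the higher, as a smaller fall in Klf4 and Klf11, as no called change against a fall in Klf2 and Klf13, and as a rise in Klf3. The nApoE3 response was the higher for Klf10, with a difference of -0.54 ± 0.11 (adjusted p = 0.00231), for Klf6, with -0.32 ± 0.067 (adjusted p = 0.00282), and for Klf16, with -0.22 ± 0.076 (adjusted p = 0.0488). The Klf16 value kept its call in 5 of 18 alternative settings, and it was lost without any 1 of 9 samples, the exceptions being ControlA replicate 2 and ApoE4 replicate 1. The Klf11 value was lost without ApoE3 replicate 2 (0.48, adjusted p = 0.0647). For Klf7 the difference was 0.03 with a 95% interval of -0.27 to 0.32 (adjusted p = 0.913), and for Klf9 it was -0.01 with an interval of -0.26 to 0.24 (adjusted p = 0.963), which bounds but does not exclude a difference.

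**Figure D2:**
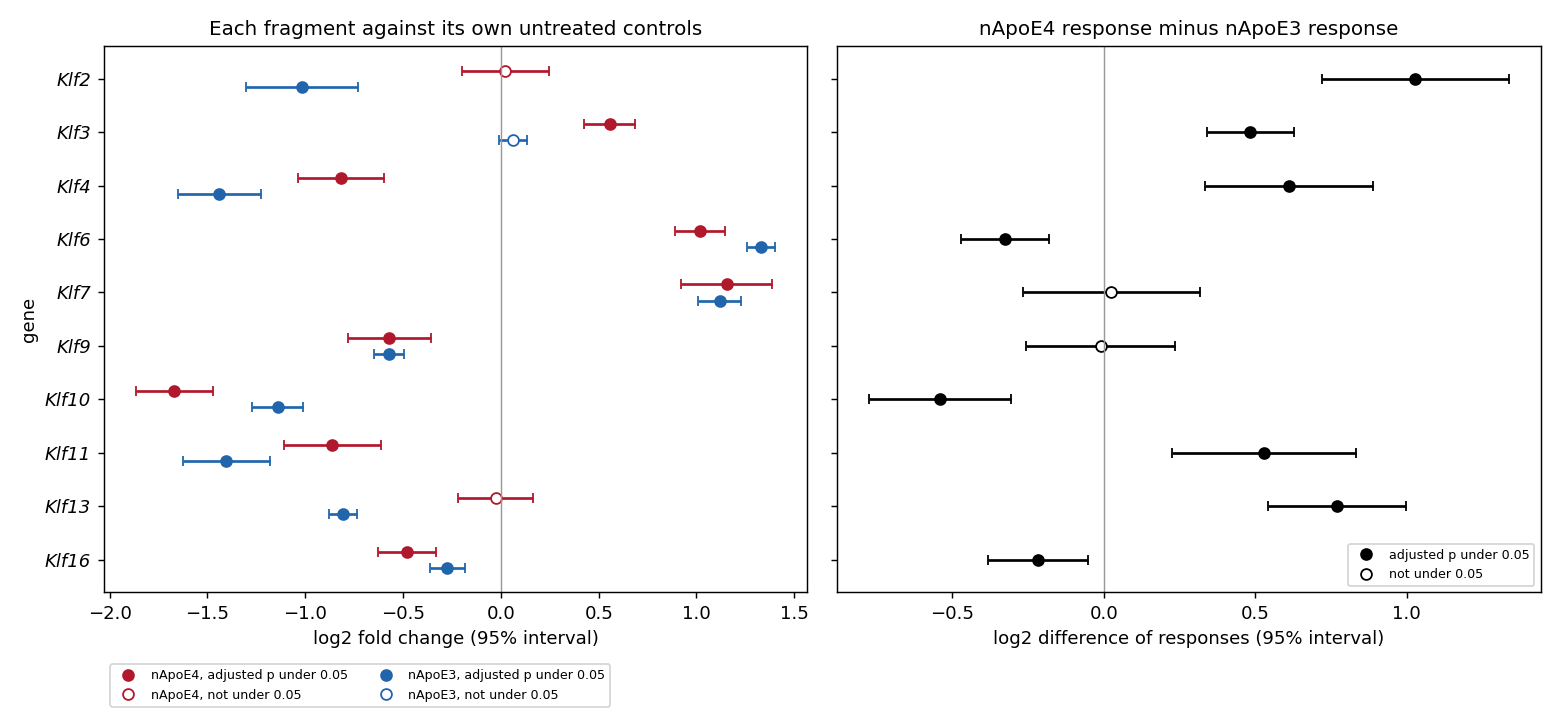
Left, log2 fold change of each Klf gene with nApoE4 (red) and nApoE3 (blue) against the untreated controls of the same experiment, and right, the nApoE4 response minus the nApoE3 response on the log2 scale. Lines are 95% intervals and filled points have an adjusted p under 0.05 by edgeR. Klf2 is near 0 with nApoE4 (0.02) and at -1.02 with nApoE3. The intervals of the 2 fragments overlap for Klf7 (1.15 and 1.12), Klf9 (-0.57 and -0.57) and Klf16 (-0.48 and -0.27).

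The untreated controls of the 2 experiments were not alike in these genes, and each response above is measured from its own baseline. Between the control groups, 7 of 10 members were called, against 69.3% of 14249 genes tested, with 4 higher in the controls of the nApoE4 experiment (34.9%) and 3 lower (34.4%). Klf7, the 1 member past 2-fold (17.9% of all genes, 12.5% higher and 5.4% lower), was higher there by 1.07 on the log2 scale (24.4 ± 3.67 against 11.8 ± 0.392 CPM, SD, n = 3 each), Klf2 by 0.74 (5.32 ± 0.340 against 3.22 ± 0.109 CPM) and Klf6 by 0.46 (85.2 ± 3.57 against 62.5 ± 1.72 CPM). Klf10 was lower there, at -0.30 (18.7 ± 1.36 against 23.3 ± 1.31 CPM). The smaller values of Klf4 (0.23, adjusted p = 0.0335 by edgeR), Klf9 (-0.22, adjusted p = 0.0464) and Klf16 (-0.12, adjusted p = 0.0438) lost their calls without ControlA replicate 1 or any 1 of the ControlB replicates, and Klf4 and Klf16 also without ControlA replicate 3, and the count of called members was 4 to 7 with 1 sample left out. Sample ranges of the control groups did not overlap for 9 of 10 members, against 74.1% of all genes. For Klf2 the interaction of 1.03 and the baseline difference of 0.74 rest on the same control samples.

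Levels can be set side by side between genes only per length, and CPM were divided by the length of the merged exons in kilobases. Klf6 was first in all 4 groups, at 19.4 ± 0.812 CPM per kilobase in the controls and 39.1 ± 0.387 with nApoE4 (SD, n = 3), and 14.2 ± 0.391 (n = 3) and 36.0 ± 1.34 (n = 2) in the nApoE3 experiment. Its share of the summed level of the 10 genes was 30.5% ± 1.29 and 50.1% ± 0.891 in the first pair of groups and 24.0% ± 0.447 and 52.9% ± 0.508 in the second. The summed level was 63.7 ± 2.55 and 78.2 ± 2.17 CPM per kilobase in the nApoE4 experiment and 59.3 ± 0.577 and 68.1 ± 1.88 in the nApoE3 experiment. In the controls of the nApoE4 experiment Klf16 (9.98), Klf13 (8.44) and Klf9 (7.93 CPM per kilobase) followed, the last 2 overlapping between samples, then Klf10 (4.48), and then Klf3 (3.39), Klf7 (3.00), Klf2 (2.88) and Klf4 (2.71), of which each overlapped the next. Klf11 had the lowest mean in every group, at 0.522 to 1.51 CPM per kilobase, and overlapped Klf7 between samples in the controls of the nApoE3 experiment. With nApoE4, Klf7 moved from place 7 to place 4 (6.66 CPM per kilobase, overlapping Klf16) and Klf10 from place 5 to place 9 (1.40). With nApoE3, Klf2 and Klf4 were at 0.865 and 0.867 CPM per kilobase and overlapped.

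**Figure D3:**
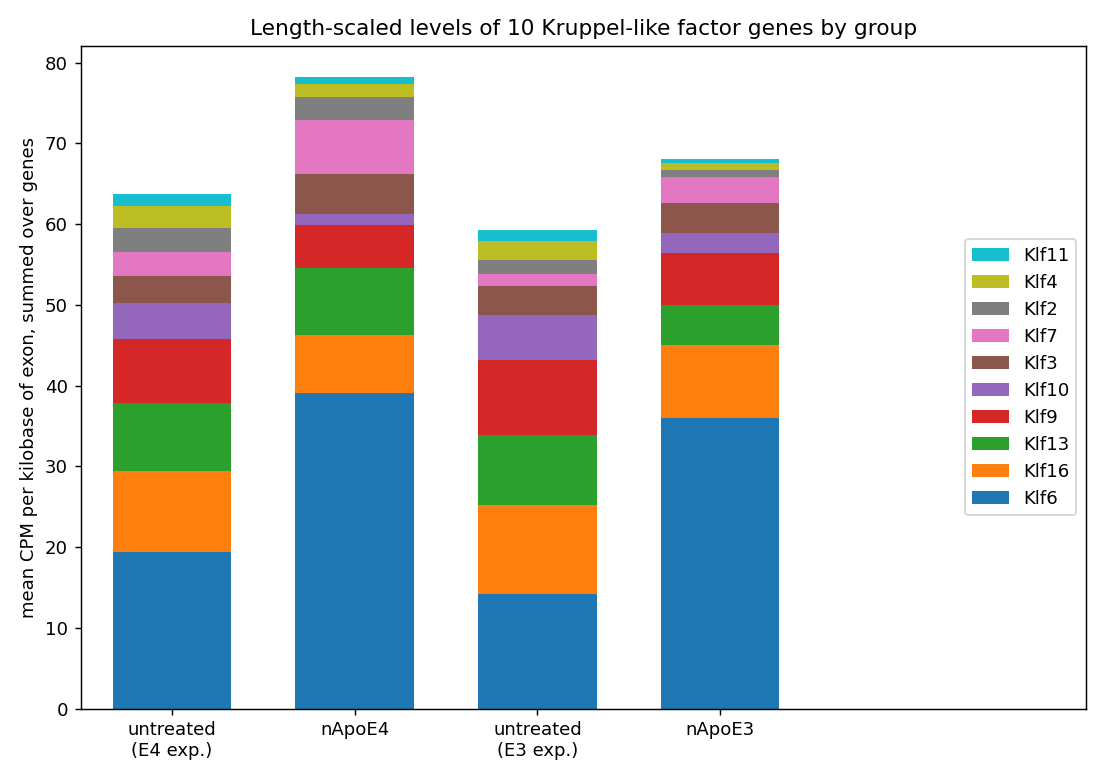
Mean level of the 10 Klf genes in CPM per kilobase of exon (vertical axis, from 0), stacked by group, with the segments in the same order in each bar. The lowest segment, Klf6, goes from 19.4 to 39.1 with nApoE4 and from 14.2 to 36.0 with nApoE3, while the summed level goes from 63.7 to 78.2 and from 59.3 to 68.1.

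Of the 7 other Klf genes listed, Klf5, Klf14 and Klf17 had 0 to 9 counts per sample. Of those tested, 2 were higher and 1 lower with nApoE4 (28.6% of all genes each), and 1 of 4 was higher with nApoE3 (33.1%). The lower one, Klf1, had 36 to 48 counts in the controls and 9 to 23 with nApoE4, and is named after its values were seen. Counts of Klf15, a factor of glucocorticoid and metabolic control, were 73, 88 and 75 untreated and 279, 268 and 278 with nApoE4, a log2 fold change of 1.92 ± 0.12 (adjusted p = 7.19e-07 by edgeR). They were 160, 130 and 126 untreated and 192 and 155 with nApoE3, a log2 fold change of 0.45 ± 0.13 (adjusted p = 0.0101), whose call was lost without ApoE3 replicate 1. The 2 responses of Klf15 differed by 1.46 ± 0.17 (adjusted p = 4.00e-05). Klf12, a repressor, rose by 1.73 ± 0.24 with nApoE4 (adjusted p = 0.000205) from 14 to 21 counts in the controls to 47 to 64 counts, and was not called with nApoE3 (0.64 ± 0.33, adjusted p = 0.104).

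Among the Sp factors, which bind the same GC boxes, 0 of 5 tested were higher with nApoE4 (28.6% of all genes) or nApoE3 (33.1%). Lower were 2 with nApoE4 (28.6%) and 4 with nApoE3 (34.6%). Sp8 fell by 2.27 on the log2 scale with nApoE4 and by 0.99 with nApoE3, and Sp3, a factor that competes with Sp1 for GC boxes, fell by 0.62 and 0.42. Of 15 genes for corepressors, coactivators and ubiquitin ligases that act on Klf proteins, 3 were higher and 4 lower with nApoE4. With nApoE3, 5 were higher and 6 lower, beside the same shares over all genes. Sap30, a subunit of the Sin3 complex that the repressors of the family bind, rose by 1.10 ± 0.085 (adjusted p = 3.22e-06 by edgeR) and 0.96 ± 0.039 (adjusted p = 3.77e-10), while Sin3a, its scaffold, fell by 0.84 and 0.74. Wwp1, a ubiquitin ligase known to act on Klf2, fell by 0.67 and 0.77. The ligase genes of the list did not move as one. Fbxw7 rose by 0.59 and 0.32, and Siah1a rose by 0.56 with nApoE4 and was not called with nApoE3 (0.09).

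The ERK5-MEF2 route, in which MAP kinase Erk5 (Mapk7) acts through MEF2 factors on Klf2 and Klf4, had 7 genes, all tested. With nApoE4, 2 were higher and 2 lower (28.6% of all genes each), and with nApoE3, 0 were higher (33.1%) and 5 lower (34.6%). Mef2c was 195 ± 17.6 and 65.1 ± 2.21 CPM in controls and nApoE4 samples (SD, n = 3) and 124 ± 3.11 (n = 3) and 36.2 ± 0.697 (n = 2) CPM in the nApoE3 experiment, a log2 fold change of -1.58 ± 0.077 (adjusted p = 1.26e-07 by edgeR) and -1.78 ± 0.033 (adjusted p = 3.06e-13). Mef2d fell by 1.28 and 0.59. Mef2a and Mapk7 rose with nApoE4, by 0.63 and 0.43, whereas with nApoE3 Mef2a fell by 0.13 and Mapk7 was not called (0.03). Their responses were higher than with nApoE3 by 0.74 (adjusted p = 4.28e-05) and 0.39 (adjusted p = 0.0019). The difference for Mef2d was -0.70 (adjusted p = 0.00212 by edgeR).

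In the TGF-β route, which bears on Klf10 and Klf11, 4 of 13 tested genes were higher and 5 lower with nApoE4 (28.6% of all genes each). With nApoE3, 5 were higher (33.1%) and 6 lower (34.6%). The inhibitor Smad7 fell by 0.36 with nApoE4, from 11.1 ± 0.489 to 8.66 ± 0.573 CPM. It was 37.2 ± 0.205 CPM in controls and 18.0 ± 2.06 CPM with nApoE3, a fall by 1.05 on the log2 scale, and the corepressor gene Skil rose by 1.25 and 0.70. Smad3 fell by 1.37 with nApoE4 and by 0.48 with nApoE3.

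Of the glucocorticoid-response genes, which bear on Klf9 and Klf15, 2 of 6 tested were higher and 4 lower with nApoE4 (28.6% of all genes each). With nApoE3, 2 of 7 were higher (33.1%) and 2 lower (34.6%). Zbtb16 fell by 3.73 ± 0.19 (adjusted p = 1.66e-07 by edgeR) and 3.05 ± 0.14 (adjusted p = 1.33e-09), and Tsc22d3 by 1.29 and 2.16. Sgk1 rose by 1.15 and Dusp1 by 0.83 with nApoE4, and with nApoE3 Dusp1 rose by 1.63 and Sgk1 was not called (0.08). Klf9 fell with both fragments, and Klf15 rose with nApoE4, so that the 2 family members tied to this hormone moved in opposite directions there. With nApoE3 the rise of Klf15 was 0.45 on the log2 scale, and its call was lost without ApoE3 replicate 1.

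Of 12 genes described elsewhere as targets of Klf proteins, 8 were tested, and 1 was higher and 5 lower with each fragment. Over all genes tested, 28.6% were higher and 28.6% lower with nApoE4, and 33.1% and 34.6% with nApoE3. Thrombomodulin (Thbd), an anticoagulant receptor activated by Klf2 and Klf4, was 13.97 ± 0.417 CPM in controls and 1.08 ± 0.137 CPM with nApoE4 (SD, n = 3), and 17.8 ± 0.599 CPM (n = 3) against 1.83 ± 0.109 CPM (n = 2) with nApoE3. By edgeR, its log2 fold change was -3.69 ± 0.11 (adjusted p = 5.80e-09 by edgeR) and -3.29 ± 0.075 (adjusted p = 1.65e-12). S1pr1, the sphingosine receptor gene activated by Klf2 in T cells, fell by 1.65 and 1.48. The cell cycle inhibitor Cdkn1a rose by 1.97 and 1.99, from 51.3 to 200 CPM and from 23.5 to 93.6 CPM. Ccl5, the target of Klf13, is listed at 0 counts in all 11 samples, and whether this 0 reflects its expression was not tested.

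The genes most like each of the 7 members called in the same direction with both fragments were ranked by Pearson's correlation of log2 CPM over the 11 samples, among 15287 genes. The samples share 4 group means, so that any gene with the same group pattern scores high, and no test is given. For Klf6 they were Zc3h12a, an RNase that degrades inflammatory transcripts (r = 0.9985), Parp3 (0.9985) and Irak2, a kinase of Toll-like receptor signaling (0.997). For Klf10 they were Gm572 (0.997), Irf2bp2 (0.996) and Myo1f (0.996), and for Klf7 they were Gm29953 (0.996), Iqgap1 (0.996) and Fbxw17 (0.996). For Klf4 they were Def8 (0.993), Snrk (0.992) and Slc46a3 (0.991), and for Klf11 they were Ubr7 (0.994), Fbxo3 (0.99) and Mettl7a1 (0.99). For Klf9 they included Tm6sf1 (0.99) and Usp48 (0.988), and for Klf16 they were Rfwd3 (0.995), Rbm38 (0.991) and Gm32131 (0.99).

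AU-rich words in the 3′ untranslated region, which mark many short-lived transcripts, were counted from the annotation of GRCm38. The word ATTTA was present in all 10 members and in 71.8% of 17073 genes. The median length over these genes was 1071 bases, and a longer region holds the word more often, so presence alone is no contrast. Klf7 held 18 in 6269 bases, Klf9 8 in 3225, Klf6 7 in 3114, Klf3 7 in 3746 and Klf13 3 in 5160, while Klf10, Klf11 and Klf16 held 4 each. Klf2 and Klf4 held 1 each in 740 and 985 bases. Per kilobase this was 0.581 to 2.87 words in the members against a median of 1.47, with 2.25 and 2.87 in Klf6 and Klf7, which rose, and 2.48 and 2.68 in Klf9 and Klf10, which fell. The longer word TTATTTATT was found in Klf16 among the members and in 8.19% of genes.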

How the data were processed

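RNA of 11 BV2 samples was sequenced as single reads. Per the labels and the methods of the study, the authors trimmed reads with Trim Galore 0.5.0, checked them with FastQC 0.11.8, mapped them to GRCm38.p6 with HISAT2 2.1.0 and counted them per gene with HTSeq 0.11.0, and deposited raw counts for each sample, with 36529 genes and the tallies of reads not assigned to genes. Reads on genes were 76.0 to 77.7% of all tallies. The tallies were left out of library sizes. The strand setting of the counting is not given in the sources used here. Groups came from the sample labels.

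Tests were run with edgeR 4.0.16 under R 4.3.3 (filterByExpr, TMM, quasi-likelihood F test, Benjamini-Hochberg adjustment over all genes tested, threshold 0.05), comparing each fragment with its own controls, the 2 responses as an interaction over 11 samples, and the 2 control groups. The SE was approximated from the size of each log2 change and its F statistic, and log2 CPM for correlations used a prior count of 2. The scripts were tested on simulated data. Alternatives were DESeq2 1.42.0, other scaling, other filters, thinning, a joint fit, a replicate block, each sample left out, and a fold above 2. The floor of 3 counts covers counting error only. Lengths, coordinates and untranslated regions came from a GENCODE annotation of GRCm38, which need not be the one counted on, and promoters from RefSeq.

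The members and lists were chosen with earlier results of these data known. Named genes were all members, up to 3 genes per direction with the largest called change in each list at a mean of at least 1 CPM, and the 3 most correlated genes for members called alike with both fragments. Klf5, Klf14 and Klf17 were named for their low counts. Some genes of these lists are counted but not reported here by name.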

Additional observations from a re-analysis of the deposited data

Results flagged for a closer look

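The responses of 8 members differed between the fragments by the interaction test of edgeR over 11 samples, at an adjusted p under 0.05. The log2 difference, nApoE4 response minus nApoE3 response, was 1.03 for Klf2, 0.77 for Klf13, 0.61 for Klf4, 0.53 for Klf11 and 0.48 for Klf3. It was -0.54 for Klf10, -0.32 for Klf6 and -0.22 for Klf16. For Klf2 and Klf13 the nApoE4 samples overlapped their controls, while both nApoE3 samples lay below all of theirs. Fragment and experiment cannot be told apart in any of these values.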

How the results depend on the processing

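All calls of members with nApoE4 and with nApoE3 were kept under each alternative other than the fold threshold, and the members called numbered 8 and 9 in each. The median log2 fold change of all genes was moved to -0.09 with nApoE4 and -0.13 with nApoE3 when library totals were used without TMM, a setting added after seeing the data. Uncalled values changed sign there, to -0.0653 for Klf2 with nApoE4, -0.0704 for Klf3 with nApoE3, 0.0411 for the difference of Klf9 between fragments and 0.0208 for Klf13 between control groups. The difference of Klf9 was also 0.0273 when genes with at least 1 count were kept and 0.0147 with the replicate block. With 1 sample left out, values ran from -0.0307 to 0.0528 for Klf2 and from -0.1159 to 0.0316 for Klf13 with nApoE4, from -0.0812 to 0.1369 for the difference of Klf7, from -0.0886 to 0.101 for that of Klf9, and from -0.0841 to 0.0242 for Klf13 between control groups. With a fold above 2 the members called numbered 3 with nApoE4, 6 with nApoE3, 1 for the difference and 1 between controls, and all genes called numbered 2515, 2397, 906 and 2551. Replicate numbers were shared between groups, and the residuals of same-numbered samples correlated at -0.1717 to -0.0079. No positive pairing showed, but residuals from the means of so few samples are tied to each other and cannot exclude it. With the replicate block, all genes differing between fragments numbered 2307 in place of 4331, and the members 6 in place of 8, with Klf11 (0.551, adjusted p = 0.074 by edgeR) and Klf16 (-0.2214, adjusted p = 0.1714) no longer called. Members differing between control groups numbered 4 to 7 with 1 sample left out, 4 without ControlA replicate 1 or any 1 of the ControlB samples. The causes of these moves were not tested. Depth limits Klf2, Klf4 and Klf11 most, at 89 to 482 counts per sample.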
